A study of Solanum lycopersicum with 4 samples.

Results

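The change in transcript levels during ripening of AtJUB1-OX tomato fruits was taken as the log2 signal of each probe set in pericarp at B+7 minus that at MG. A probe set is the group of short oligonucleotides that measures a transcript on the GeneChip Tomato Genome Array. Of the 10209 probe sets on the array, 10038 were used, after 108 control and 63 reporter probe sets were left out. The fruits were of cv. Moneymaker. AtJUB1-OX plants carry AtJUB1-GFP, a fusion of the Arabidopsis NAC factor JUNGBRUNNEN1 with green fluorescent protein, driven by the constitutive 35S promoter, and in the study's fruit work this name stands for a single transgenic line. Wild type plants of the same cultivar lack the transgene. MG is the mature green stage, and B+7 is 7 days after breaker, the onset of colour change. There were 4 arrays, 1 for each genotype and stage, so no condition had a replicate. Differences were therefore not tested, and the spread between fruits is unknown.

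As tomato pericarp ripens, chlorophyll is lost, red carotenoids build up and cell wall enzymes loosen the tissue, while ethylene production climbs steeply. These events depend on transcription factors that include the MADS-box protein RIN and the NAC protein NOR, on ACC synthases (ACS) and ACC oxidases (ACO), which make ethylene from S-adenosylmethionine, and on ETR receptors, which are repressed by bound ethylene.

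A change was counted when it reached 1.5-fold, or 0.58 on the log2 scale, which is the cut-off the study used between genotypes. In AtJUB1-OX, 1927 probe sets were higher at B+7 (19.2%) and 1699 were lower (16.9%). Wild type had 1405 higher (14.0%) and 1432 lower (14.3%) ones. The annotation gave 803 genes for 909 of the probe sets, and among these genes 145 were higher in AtJUB1-OX (18.1%) and 183 lower (22.8%). These percentages are the background against which the counts of the gene groups below are given. Large changes were mostly decreases. At 4-fold or more, AtJUB1-OX had 205 probe sets higher and 456 lower, and wild type had 213 higher and 312 lower. The changes ranged from -7.28 to 8.43 with an SD of 1.10 in AtJUB1-OX and of 0.95 in wild type, and their medians were 0.09 and 0.04. Both extremes belonged to probe sets without a gene name, and they were near the same in wild type, at -7.51 and 8.41. The 2 AtJUB1-OX arrays had a correlation of 0.923 over the probe sets and the 2 wild type arrays one of 0.941 (Pearson), as a description of the arrays.

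The split of higher and lower probe sets depended on how the arrays were scaled. The bioB, bioC and bioD spikes, bacterial RNAs added at hybridization, had a median log2 signal of 11.36 at B+7 and 11.18 at MG in AtJUB1-OX. Shifting the arrays by them gave 1284 higher and 2137 lower, so that 37.5% of the counted probe sets were higher in place of 53.1%. The median of all probe sets was then -0.09 in place of 0.09. The cre spikes were nearly level, at 14.27 at B+7 and 14.29 at MG in AtJUB1-OX, a change of -0.03 against 0.02 in wild type. Some other controls moved between the AtJUB1-OX arrays. The 25S and 17S ribosomal RNA probe sets were higher at B+7 by 1.76 and 1.39, against 0.44 and 0.84 in wild type. The distance between the 3' and 5' probe sets of a transcript grows as RNA breaks down. In AtJUB1-OX it differed at B+7 from that at MG by between -0.95 (EF1a) and -0.05 (GAPDH). In wild type these 2 differed by -0.46 and 0.06. For EF1a, ubiquitin, actin and GAPDH alike, the distance was largest on the AtJUB1-OX MG array. For EF1a it was 4.75 there, 4.22 on the wild type MG array and 3.80 on the AtJUB1-OX B+7 array. The part of these controls in the changes below was not tested. Where 82 genes were measured by several probe sets, the pooled SD between the probe sets of a gene was 0.74 for the change in AtJUB1-OX, and it was 0.27 for the 34 genes with several above the median signal of 9.70. Changes of dim genes may be less exact, but dim probe sets were not pooled alone. The larger SD took in genes with widely unlike probe sets, such as PR1b1 (-6.84 and 0.15). Of 61 reporter probe sets, which mostly lay near background, 6 were higher at B+7 and 0 lower in AtJUB1-OX, with a median of 0.27. Genes no brighter than the 95th percentile of these reporters, 5.72 at B+7 and 5.15 at MG, are called at the reporter level, and the size of their change is uncertain.

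The labelled tissue was checked by fruit genes. The fruit transcript 2A11 had log2 signals of 14.40 at B+7 and 14.42 at MG in AtJUB1-OX. PG2, EXP1, E8, Psy1, loxC and LOXB, also known from fruit, were above 11.9 at B+7. At MG in AtJUB1-OX, Psy1 and LOXB were at 11.17 and 11.65, while PG2, EXP1, E8 and loxC were between 4.89 and 6.95. LOX1.1, with the synonym tomloxA, was at 8.68 at B+7 and 12.76 at MG. These genes change with ripening, so 2A11 alone was bright and level on both arrays. Of the pollen and anther genes, the receptor kinase genes PRK1, PRK2 and PRK3 stayed between 2.79 and 3.50 on both AtJUB1-OX arrays, while LAT61 was at 12.11 and 12.19. The other LAT genes and E4 were not named on the array, and TOM92 proved to be a synonym of hdc, a gene of fruit. In such whole-tissue RNA, fewer cells of a type and less RNA per cell cannot be told apart.

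Among named genes, the cell wall enzyme genes PG2 and Man4 had the largest increases. PG2, the fruit polygalacturonase that degrades pectin, had a log2 signal of 14.23 at B+7 and 6.32 at MG in AtJUB1-OX, a 241-fold difference, and 14.16 and 3.98 in wild type. Both genotypes thus had nearly the same signal at B+7, and the higher signal at MG lay in AtJUB1-OX. Man4, which encodes an endo-mannanase of ripening fruit, was at 11.05 at B+7 and 3.59 at MG, a difference of 7.47, against 7.58 in wild type. The xylosidase gene XYL1 was higher by 6.37 (4.70 in wild type). The MG signals of Man4 and XYL1 in AtJUB1-OX were at the reporter level. The endoglucanase genes Cel2 and Cel1 were higher by 5.27 and 3.62, against 5.01 and 3.45 in wild type.

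Expansins, which loosen walls without cutting them, mostly went the other way. EXP1, the ripening expansin, stood at 13.09 at B+7 and 6.05 at MG in AtJUB1-OX, with 12.60 and 10.39 in wild type. Its change was 7.04 in AtJUB1-OX and 2.21 in wild type, and the MG array of AtJUB1-OX held the lowest of the 4 signals. Of 12 expansin genes, 8 were lower at B+7 in AtJUB1-OX and 2 were higher, with a median change of -1.23. In wild type 4 were lower and 2 higher, with a median of -0.16. EXP5 was at 9.92 at B+7 and 12.09 at MG in AtJUB1-OX, and EXPA3 at 11.14 and 12.55. These 2 are the only expansin genes above the median signal. The dim genes exp9, EXPA10, EXP12, exp18, EXPA6 and exp11 were lower by between 2.66 and 0.91, and exp9 and EXPA10 were at the reporter level at B+7. When values were floored at the 25th percentile of all signals, the median of the expansins was -0.01, so the low members set it.

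The xyloglucan, mannan and glucan group held 23 genes, of which 8 were higher and 5 lower at B+7 in AtJUB1-OX, with a median of 0.22 beside 0.09 for all probe sets. With the floor, cel5 and XET2 of the higher genes and cel7 and CELLULASE of the lower ones were within 1.5-fold. On both AtJUB1-OX arrays cel5 and CELLULASE were at the reporter level, and cel7 was so at B+7. Xyloglucan endotransglucosylase/hydrolases, which cut and rejoin xyloglucan chains, were split. XTH9 was higher by 1.40 and XTH5 by 0.94. XTH16 had 9.56 at B+7 and 12.64 at MG in AtJUB1-OX, with 9.90 and 12.05 in wild type. XTH1 was at 7.62 at B+7 and 11.74 at MG in AtJUB1-OX, with 10.65 and 11.77 in wild type. XTH1 was thus lower by 4.13 in AtJUB1-OX and by 1.12 in wild type, from nearly equal MG signals. XTH3 differed by -0.08 in AtJUB1-OX and by 1.19 in wild type.

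Among 7 β-galactosidase genes, which encode enzymes that trim galactan side chains, 3 were higher and 2 lower in AtJUB1-OX. TBG4 had 10.64 at B+7 and 6.99 at MG, and TBG3 had 11.54 and 9.16. TBG6, a gene known from growing fruit, had 8.18 at B+7 and 10.94 at MG. TBG5 was at 9.65 at B+7 and 10.52 at MG in AtJUB1-OX. Its changes, -0.87 in AtJUB1-OX and 1.87 in wild type, had opposite signs. Among 9 pectin genes, PG2 was the only one higher. GP1, whose RefSeq synonym AroGP1 is the non-catalytic subunit that binds polygalacturonase, had 7.62 at B+7 and 13.21 at MG in AtJUB1-OX, and 8.60 and 13.13 in wild type. The pectin methylesterase genes PMEU1 and PE1 were lower by 1.86 and 1.33 in AtJUB1-OX, with 0.77 and 0.80 in wild type. The plot of cell wall genes sets these changes side by side.

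**Figure D1:**
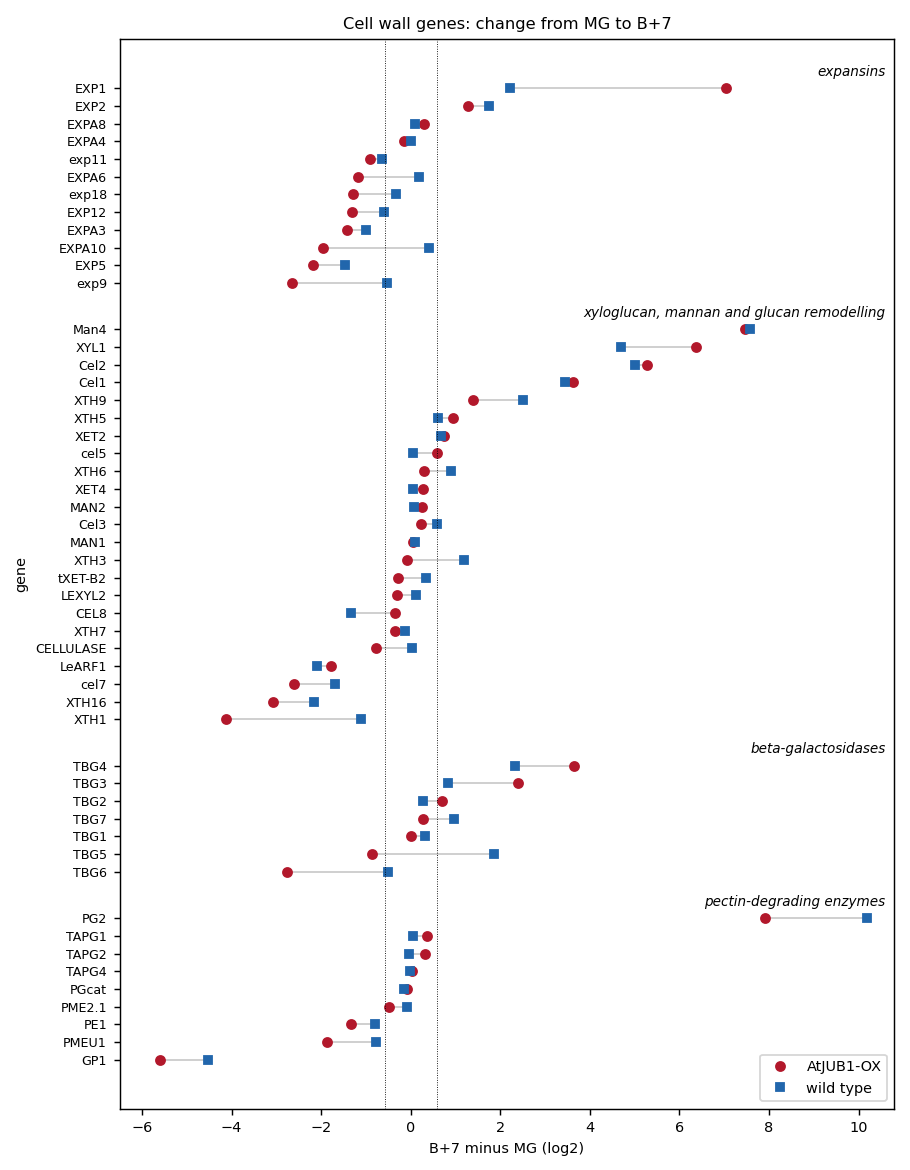
Change from MG to B+7 (log2 difference, horizontal axis) of the genes of 4 cell wall groups, with AtJUB1-OX as circles and wild type as squares and the 1.5-fold cut-off as dotted lines, each from 1 array per stage. PG2, Man4 and EXP1 lie farthest to the right in AtJUB1-OX, and in the expansins 8 of 12 circles lie left of the cut-off.

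Of 11 MADS-box and NAC genes, 3 were higher at B+7 in AtJUB1-OX and 1 was lower, with a median of -0.02. In wild type 4 were higher and 0 lower, with a median of 0.27. RIN had log2 signals of 13.52 at B+7 and 10.56 at MG in AtJUB1-OX, with 13.56 and 11.39 in wild type. NOR was at 11.95 and 9.35 in AtJUB1-OX, with 11.43 and 9.96 in wild type. TDR4, a FRUITFULL-like MADS-box gene, was at 13.67 and 11.86, against 13.69 and 12.55. All 3 had a larger change in AtJUB1-OX than in wild type, by 0.79, 1.13 and 0.67, and each was lower in AtJUB1-OX at MG. The lower gene was TDR6 (-1.03). TAGL1, the AGAMOUS-like ripening factor, was bright and nearly level, at 12.78 and 12.76. The other NAC gene, NAC1, was also level, at 11.02 and 11.05 in AtJUB1-OX, while in wild type it was at 11.45 and 10.57.

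In ethylene synthesis, 2 of 13 genes were higher and 6 lower in AtJUB1-OX, with a median of -0.55. In wild type 5 were higher and 2 lower, with a median of 0.26. The ripening ACC synthase genes were the higher ones. ACS2 had 13.11 at B+7 and 8.25 at MG, and ACS4 had 12.45 and 6.52, changes of 4.86 and 5.94 against 5.67 and 5.04 in wild type. ACO5 did not follow them. It was at 7.39 at B+7 and 7.52 at MG in AtJUB1-OX, whereas in wild type it was at 10.13 and 5.56. ACO6 was lower by 1.29 in AtJUB1-OX and differed by 0.03 in wild type. ACS6 was lower by 1.08, against -0.08 in wild type. ACS1A was at 7.38 and 8.49 in AtJUB1-OX and at 8.40 and 5.69 in wild type. The S-adenosylmethionine synthetase genes SAM1 and SAM3 were lower by 0.91 and 2.12. The median of the group in AtJUB1-OX was below that in wild type, and the difference was not tested. ACS5, ACS7 and ACS8 were at the reporter level on both AtJUB1-OX arrays, and ACS3 was so at B+7. ACS3, among the lower genes, lost its decrease with the floor. ACS8, among the higher ones in wild type, was dim there too, at 3.99 and 3.03.

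Ethylene receptors and their signalling partners changed little in AtJUB1-OX. Of 15 genes 2 were higher and 1 lower, against 6 and 0 in wild type. ETR3, the receptor gene altered in the Never-ripe mutant, had 13.32 at B+7 and 12.10 at MG in AtJUB1-OX, and 13.31 and 11.42 in wild type. ETR4, another receptor gene, had 13.03 and 12.22, against 13.04 and 11.29. The dimmer ETR5 and ETR6 differed by -0.04 and -0.06 in AtJUB1-OX and were higher by 1.25 and 1.69 in wild type. For these 4 genes the B+7 signals of the genotypes lay within 0.53 of each other, and the MG signals were between 0.68 and 1.22 higher in AtJUB1-OX. EIL2, from the family of EIN3-like factors that carry the signal, was lower by 1.34, and EIL1, EIL3 and EIL4 stayed within 1.5-fold.

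Of 15 ethylene response factor genes, 3 were higher and 3 lower in AtJUB1-OX, while wild type had 8 and 2. TERF1 was higher by 1.32 in AtJUB1-OX and 1.53 in wild type, and ERF-H1, at the reporter level at MG, by 2.70 in either. DREB1 was at 10.02 and 8.45 in AtJUB1-OX and at 10.21 and 9.66 in wild type. ERF2 differed by 0.58 in AtJUB1-OX and CBF1 by 0.57, both just under the cut-off, while in wild type they were higher by 1.88 and 1.61. PTI6 was lower by 0.86. The other lower genes were the dim EREB (-0.95) and DREB2 (-0.67). With the floor, EREB, DREB2 and ERF-H1 were within 1.5-fold.

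Of 11 genes known to respond to ethylene in fruit, 2 were higher and 2 lower in AtJUB1-OX, with a median of 0.01. These shares were near those of all probe sets, 19.2% higher and 16.9% lower. E8, a classic marker of ripening, had 13.07 at B+7 and 6.95 at MG in AtJUB1-OX. In wild type it had 13.06 and 12.23, so the MG array of AtJUB1-OX stood apart from the other 3. ER1 had 12.06 and 8.33 in AtJUB1-OX, with 12.24 and 4.70 in wild type. ER5, a gene for a late embryogenesis-like protein, had 9.29 at B+7 and 12.98 at MG in AtJUB1-OX, and 10.44 and 10.85 in wild type. The other 8 genes were between -0.70 and 0.42, and ER43 was the lower one among them.

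**Figure D2:**
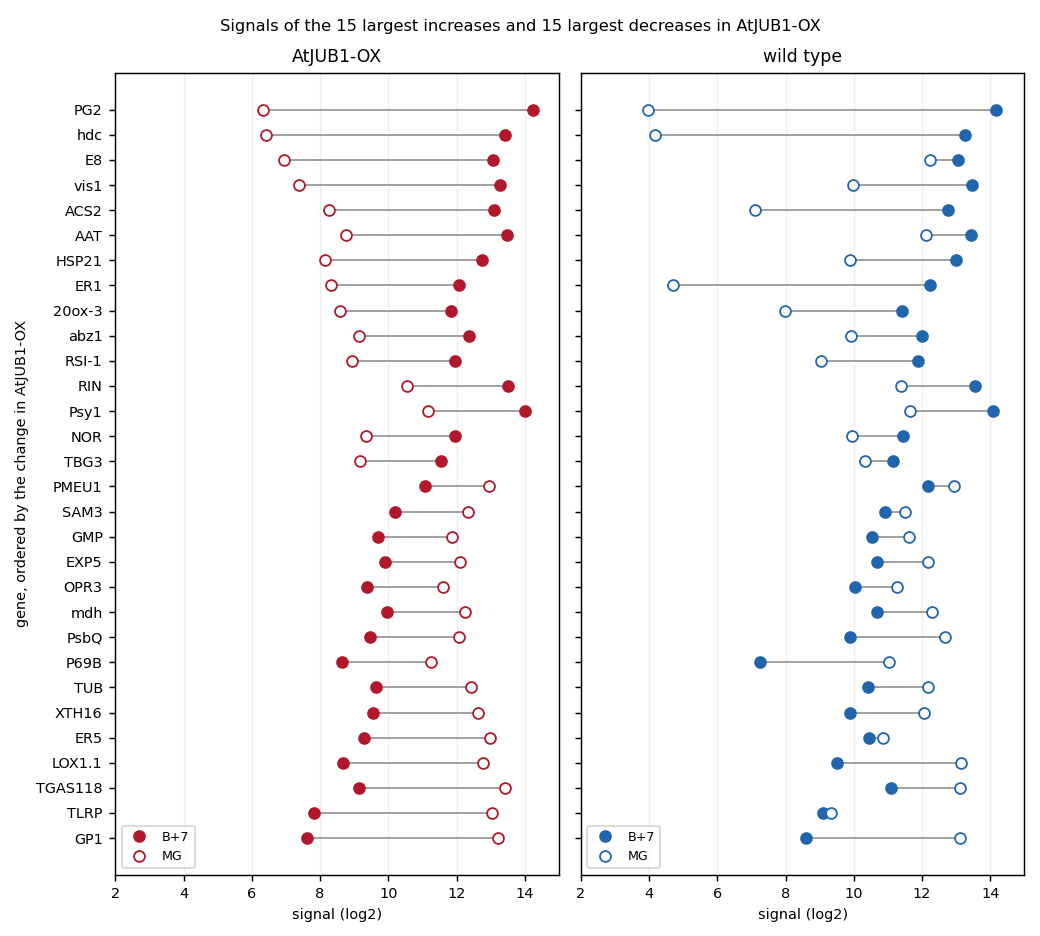
Signals (log2, horizontal axis) at B+7 (filled) and MG (open) of the 15 largest increases and 15 largest decreases in AtJUB1-OX among named genes above the median signal, with AtJUB1-OX on the left and wild type on the right, 1 array per point. The B+7 signals of PG2, hdc, E8 and AAT are within 0.14 of each other between genotypes, and their MG signals are 2.22 to 5.29 apart.

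Among genes of volatiles and carotenoids, more were higher than lower. Of 10 genes of flavour volatiles and lipoxygenases, 4 were higher and 1 lower in AtJUB1-OX, with a median of 0.32. loxC, the lipoxygenase gene of fruit aroma compounds, had 11.95 at B+7 and 4.89 at MG in AtJUB1-OX, the MG signal at the reporter level. Wild type had 12.48 and 10.96. AAT, the alcohol acyltransferase gene that makes aroma esters, had 13.47 and 8.74, against 13.43 and 12.13. LOXB was higher by 1.82 and TomloxE by 1.23. LOX1.1, whose synonym is tomloxA, had 8.68 at B+7 and 12.76 at MG in AtJUB1-OX, and 9.50 and 13.15 in wild type. ADH2, which makes alcohols from aldehydes, differed by 0.36 at a signal above 13.

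Carotenoid and isoprenoid synthesis held 19 genes, with 8 higher and 4 lower in AtJUB1-OX, and a median of 0.49 in AtJUB1-OX beside 0.46 in wild type. The increases included genes of the route to lycopene and CrtR-b1 (1.14), for a carotene hydroxylase that acts after it. DXR, HDS and PSY2, also of that route, stayed within 1.5-fold. DXS, at the entry of the plastid isoprenoid pathway, had 12.77 at B+7 and 10.75 at MG. Psy1, the fruit phytoene synthase, had 14.00 and 11.17. PDS, ZDS and PTOX, which desaturate phytoene and ζ-carotene or take up the electrons, were higher by 0.97, 1.24 and 1.12. Genes of lycopene cyclization were lower. LCY1 was lower by 1.27, CRTL-E-1 by 1.58 and NSY, with the synonym CYC-B, by 0.62, against 0.78, 1.74 and an increase of 0.72 in wild type. CRTL-E-1 was at the reporter level at B+7, and its decrease was lost with the floor. Psy1 was measured by 3 probe sets, which were at 2.84, 3.96 and, for the dimmest, -0.39.

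Photosynthesis genes were lower. Of 10 genes 6 were lower and 2 higher in AtJUB1-OX, with a median of -0.86, and in wild type 6 were lower and 0 higher, with -1.37. The chlorophyll-binding protein gene CAB6A had 7.22 at B+7 and 11.08 at MG, and PsbQ of photosystem II had 9.47 and 12.06. The photosystem I subunit gene psaD was lower by 1.38, against 2.49 in wild type. PSBO and PSBR, of the oxygen-evolving complex and its surroundings, stayed within 0.18 and were above 12. By contrast, the bright PSBP was lower by 0.73 (12.15 at B+7 and 12.88 at MG), and PsbQ by 2.59. The plastocyanin gene PETE (0.74) and the protochlorophyllide reductase gene POR2 (0.68) were higher, and both were under 1.5-fold when the arrays were shifted by the spikes.

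**Figure D3:**
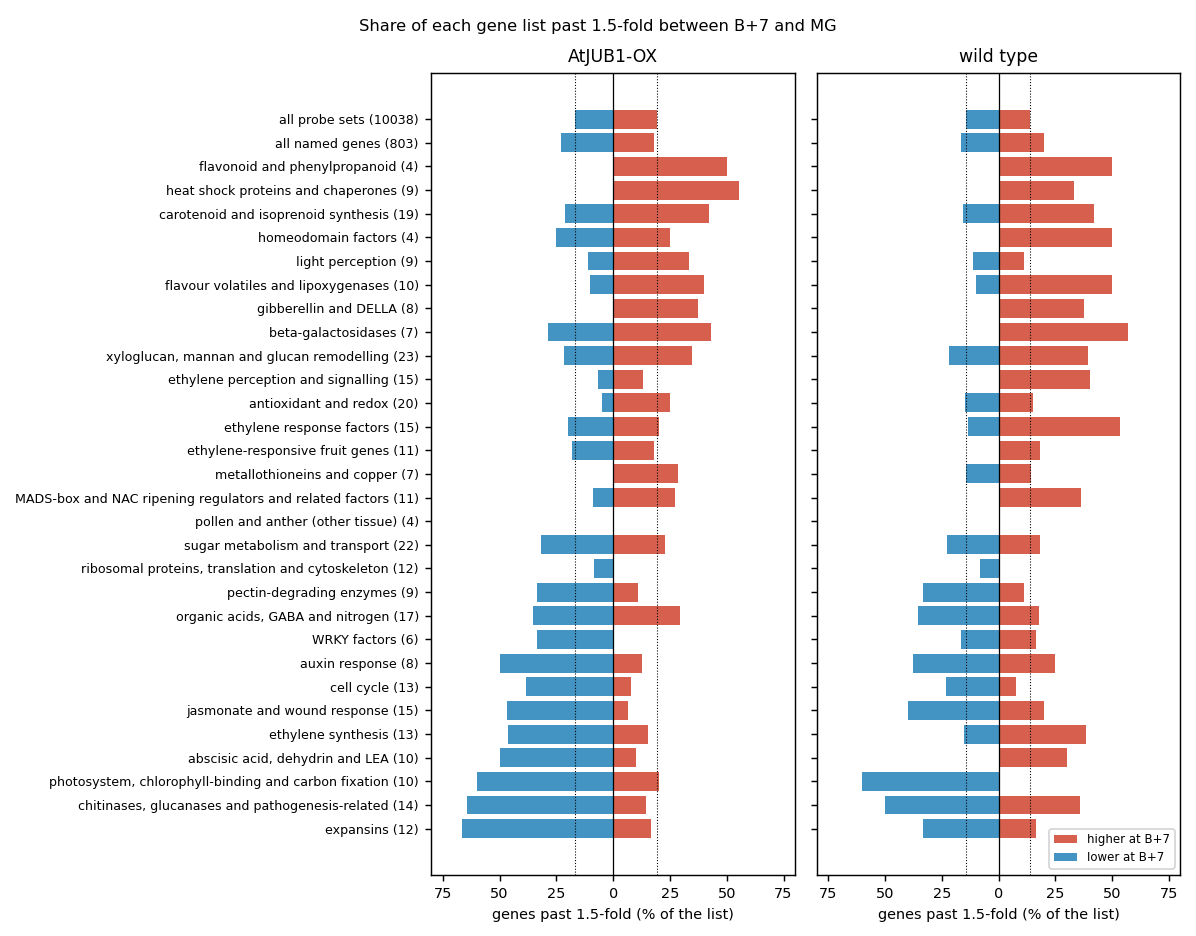
Share of each gene group that was higher (right) or lower (left) at B+7 by 1.5-fold, with AtJUB1-OX in the left panel, wild type in the right panel, the number of genes in brackets and dotted lines at the share of all probe sets. Below all probe sets and all named genes, groups of at least 4 genes are ordered by their median in AtJUB1-OX, from flavonoid genes and heat shock proteins down to the expansins at the bottom.

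Jasmonate and defence genes were more often lower than higher. Of 15 jasmonate and wound genes, 7 were lower and 1 higher in AtJUB1-OX, with a median of -0.41, against 6 and 3 with 0.01 in wild type. AOS, AOC and OPR3, of jasmonate synthesis, were lower. AOS, allene oxide synthase, had 6.25 at B+7 and 9.53 at MG in AtJUB1-OX, with 6.74 and 6.24 in wild type. AOC, allene oxide cyclase, was lower by 1.89, and OPR3, the reductase that follows, had 9.39 and 11.59. ARG2, the wound-induced arginase, had 6.16 and 11.88, against 8.44 and 12.16 in wild type, and its 3 probe sets were lower by between 3.53 and 5.94. COI1, which encodes the jasmonate receptor, and MYC2, the main factor downstream, differed by 0.23 and 0.41. The aminopeptidase gene LAPA1 was lower by 2.02 in AtJUB1-OX and higher by 0.65 in wild type.

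Of 14 chitinase, glucanase and pathogenesis-related genes, 9 were lower and 2 higher in AtJUB1-OX, with a median of -0.95, against 7 and 5 with -0.52 in wild type. PR1b1 had 5.52 at B+7, at the reporter level, and 12.37 at MG, and 5.76 and 12.32 in wild type. A further probe set of PR1b1 lay near 3 on every array, so the decrease rests on 1 probe set. The subtilase genes P69A and P69B were lower by 4.72 and 2.60. P69A was at the reporter level at B+7, and its decrease was lost with the floor. Lower too was the acidic chitinase gene CHI3, by 1.06. The basic chitinase gene CHI9 had 11.34 and 13.06 in AtJUB1-OX but 11.33 and 10.90 in wild type. NP24-I, an osmotin-like protein gene known from ripe fruit, was the bright exception, at 13.58 and 11.87. GluB, the basic glucanase gene, had 10.03 and 9.68 in AtJUB1-OX, with 10.20 and 5.47 in wild type.

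Heat shock proteins and chaperones were the group with the highest share of increases among those with at least 5 genes, at 5 of 9, with 0 lower and a median of 1.38. In wild type 3 of 9 were higher, and the median was 0.40. vis1, a small heat shock protein gene linked to juice viscosity, had 13.26 at B+7 and 7.37 at MG in AtJUB1-OX, with 13.46 and 9.96 in wild type. The plastid HSP21 had 12.74 and 8.15, against 12.99 and 9.90. The cytosolic HSP17.4 and the mitochondrial MTSHP had 11.33 and 9.46, and 11.97 and 10.59, while in wild type MTSHP was at 11.68 and 12.20. HSC80 and Hsp90-1, of the large chaperones, differed by -0.09 and -0.47. Every small heat shock gene named here had its lowest signal on the AtJUB1-OX MG array.

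Of 20 antioxidant genes, 5 were higher and 1 lower, with a median of 0.05. GSH1, for the step that limits glutathione synthesis, had 12.39 and 10.70. CAT2, a catalase gene, and AOX1a, for the alternative oxidase of mitochondria, were higher by 0.98 and 0.97, against 0.65 and 0.23 in wild type. The ascorbate peroxidase genes APX1 and APX2 differed by -0.36 and -0.45, and DHAR1, for dehydroascorbate reductase, was lower by 0.89. Of 7 metallothionein and copper genes 2 were higher. MT2, which had 7.53 and 6.20 in AtJUB1-OX, had 6.58 and 7.79 in wild type. The flavonoid genes CHS1 and CHS2, for chalcone synthase, had 6.67 and 4.01, and 6.87 and 3.75, so that both were at the reporter level at MG. All 4 flavonoid genes were below the median signal.

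Among 8 gibberellin genes 3 were higher and 0 lower. Of the 3, 20ox-2 and GA3ox1 lay at the reporter level on both AtJUB1-OX arrays. GA3ox1 was under 1.5-fold with the spike shift, loess, quantile normalization and the floor, and 20ox-2 with the floor. The gibberellin 20-oxidase gene 20ox-3 had 11.84 at B+7 and 8.57 at MG in AtJUB1-OX (11.40 and 8.00 in wild type), and the DELLA gene GAI differed by -0.21. CYP85A1, for the oxidase that makes brassinosteroids, had 13.08 and 11.38 in AtJUB1-OX, with 13.26 and 10.17 in wild type. A second probe set gave it changes of 2.56 and 4.04. Among 8 auxin genes 1 was higher and 4 lower. IAA17, an Aux/IAA repressor gene, had 4.22 and 10.33, the B+7 signal at the reporter level, and IAA27 had 9.92 and 11.71. RSI-1, known as an auxin-induced gene of lateral roots, had 11.96 and 8.94, against 11.87 and 9.05 in wild type. Among 10 genes of abscisic acid, dehydrins and late embryogenesis proteins 5 were lower and 1 higher, against 0 and 3 in wild type. AO1, an aldehyde oxidase of the family that makes abscisic acid, was the higher one (0.89), and NCED1, for the cleavage step of that synthesis, was lower by 0.77. The dehydrin TAS14 had 5.80 and 7.56 in AtJUB1-OX, with 10.87 and 8.38 in wild type. Of the lower genes, LE16, TAO3 and TAS14 were within 1.5-fold with the floor, and NCED1 and ER5 stayed lower. TAO3 was at the reporter level on both AtJUB1-OX arrays, and LE16 at B+7. ER5 is also counted among the ethylene-responsive genes.

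Sugar and acid metabolism had changes in either direction. Of 22 sugar genes, 5 were higher and 7 lower, with a median of -0.06. The cell wall invertase gene lin5 had 11.63 and 9.27, a change of 2.35 in AtJUB1-OX and of 0.49 in wild type. AI, the vacuolar invertase, was bright at 14.12 and 13.10. The sucrose synthase gene sus2 had 8.40 and 11.26, and the starch gene AgpL1, for a subunit of ADP-glucose pyrophosphorylase, had 7.05 and 9.90. The hexose transporter gene HT1 was lower by 2.54, against 1.47 in wild type. Of 17 genes of organic acids, GABA and nitrogen, 5 were higher and 6 lower. PPCK2, a kinase of phosphoenolpyruvate carboxylase, had 12.21 and 6.56, against 11.96 and 8.22 in wild type. The malate dehydrogenase gene mdh had 9.96 and 12.25. GS2, the plastid glutamine synthetase, had 3.60, at the reporter level, and 8.24, and yfe37, with the synonym GAD3, had 6.58 and 11.02, while yfe37 was at 8.84 and 8.38 in wild type. The genes annotated gad2 and GABA-TP2 bear the RefSeq synonyms GAME11 and GAME12 of steroidal glycoalkaloid synthesis, the bitter compounds of green fruit. They were lower by 5.49 and 5.48 in AtJUB1-OX, with 3.64 and 4.56 in wild type, with B+7 signals of 6.21 and 5.06, the signal of GABA-TP2 at the reporter level.

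Of 13 cell cycle genes 5 were lower and 1 higher, with CDKA1 at 6.82 and 9.83 and CDKB1 at 7.19 and 8.90. The higher one was krp2, for an inhibitor of cyclin-dependent kinases, at 10.86 and 9.57. CycA1 and CycA2, among the lower ones, were at the reporter level at B+7 and within 1.5-fold with the floor. Of 6 WRKY genes 2 were lower, by 0.73 and 0.99. The 4 homeodomain genes held 1 higher, VAHOX1 (0.81), and 1 lower, h52 (-0.78). Of 9 light perception genes 3 were higher, among them the blue light receptor gene CRY1A, at 10.51 and 9.46, and 1 was lower, Cry1b, at 7.51 and 10.24. Of 12 genes of ribosomal proteins, translation factors and the cytoskeleton, 11 were within 0.25 and the tubulin gene TUB was lower by 2.79. The 4 pollen and anther genes were within 0.16.

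Of the probe sets past 1.5-fold, 928 were higher and 1101 lower in both genotypes, and 24 and 52 were higher or lower in AtJUB1-OX and went the other way in wild type. A further 975 were higher and 546 lower in AtJUB1-OX alone, by this cut-off, and 425 higher and 307 lower in wild type alone. A change past the cut-off in one genotype and not in the other is not shown to differ. Over all probe sets the changes correlated at 0.78 (Pearson). The same probes measured both genotypes, so this is a description. Among the 975, the distance between genotypes was larger at MG than at B+7 for 620 (63.6%), and among the 546 it was so for 261 (47.8%). Among the 52 it was so for 39, and among the 24 for 14. Where both genotypes moved alike, it was so for 527 (56.8%) of the 928 and for 502 (45.6%) of the 1101. The share over all probe sets was not computed. The sets were picked by the same values, so these shares are a description.

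**Figure D4:**
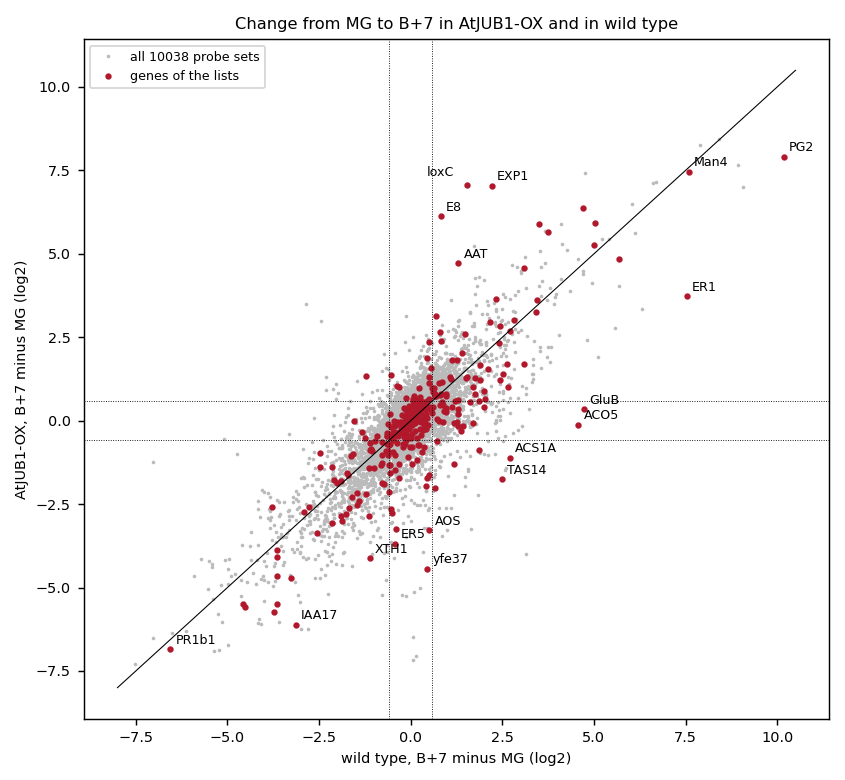
Change from MG to B+7 (log2 difference) of each probe set in AtJUB1-OX (vertical axis) against wild type (horizontal axis), grey for all probe sets and red for genes of the groups, with the line of equal change and dotted lines at 1.5-fold. loxC, EXP1, E8 and AAT lie above the line, ER1, GluB, ACO5 and TAS14 below it.

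For the probe sets with the largest changes, the genotypes lay apart more often at the stage of lower signal in AtJUB1-OX. Of the 205 that were at least 4-fold higher at B+7 in AtJUB1-OX, 135 (65.9%) were within 1.5-fold of wild type at B+7 and 98 (47.8%) at MG. Of the 456 that were at least 4-fold lower, 214 (46.9%) were within 1.5-fold of wild type at B+7 and 285 (62.5%) at MG. Over all probe sets the shares were 90.3% and 86.5%. The median distance from wild type among the 456 was -0.55 at B+7 and 0.12 at MG. Because these probe sets were picked by the AtJUB1-OX arrays, the shares are a description.

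Among single genes, the genotypes lay apart at MG, at B+7 or at both. E8, AAT, vis1, MTSHP, lin5, TBG3, HSP21, CRY1A and HSP17.4, the genes above the median signal whose change in AtJUB1-OX most exceeded that in wild type, lay within 0.38 of wild type at B+7 and below it by 1.15 to 5.29 at MG. P69B, the tenth of them, had a larger distance at B+7 (1.40) than at MG (0.21). At the other end, GluB (4.21), ER1 (3.63), PG2 (2.33), hdc (2.22) and CHI9 (2.16) were above wild type at MG and within 0.18 of it at B+7. TGAS118, a gene with the synonym DEFL2, had 9.13 at B+7 and 13.42 at MG in AtJUB1-OX (11.10 and 13.13 in wild type), and its distance lay at B+7. TLRP, for a tyrosine- and lysine-rich wall protein, had 7.81 and 13.03, against 9.10 and 9.33, so the genotypes lay apart at both stages and in opposite directions. Such genes, with the AtJUB1-OX signal above wild type at MG and below it at B+7, also included ER5 and TBG5.

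**Figure D5:**
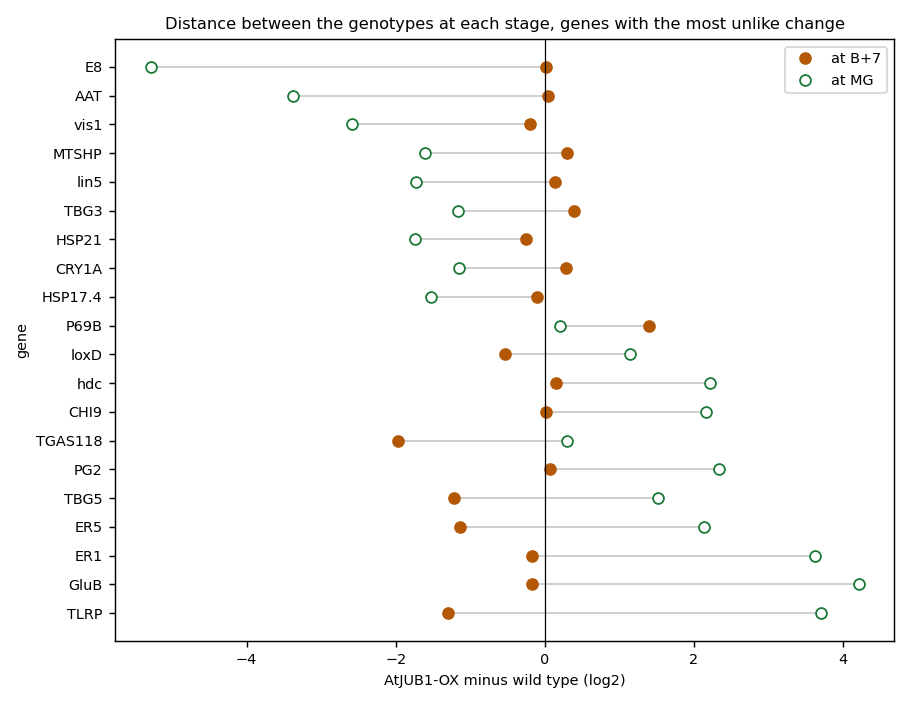
AtJUB1-OX minus wild type (log2 difference, horizontal axis) at B+7 (filled) and at MG (open) for the 10 genes whose change in AtJUB1-OX most exceeded that in wild type and the 10 for which it fell most below, 1 array per genotype and stage. For E8, AAT, GluB and ER1 the open points lie more than 3 from 0, and the filled points lie within 0.18.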

How the data were processed

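Total RNA from pericarp was hybridized to 4 arrays. The values the authors deposited are on the log2 scale, corrected, normalized and summarized by probe set. GCRMA and RMA appear in the submitters' processing notes (role, order and versions not given in the sources used here). GCRMA-type corrections widen the differences of dim probe sets. Values were used as deposited, and the change is B+7 minus MG. Precision is limited by the number of arrays.

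The platform annotation of 2007 named 909 probe sets, 885 of which were found in the table of RefSeq genes (SLM_r2.1), from which names alone were taken. Of the 909, 207 carry a bare locus number, and 10 such genes were named by a RefSeq synonym after their values had been seen. A gene is represented by its probe set with the highest mean over the arrays. Named are members of the 31 groups, the 15 largest increases and decreases, and the 10 largest differences from wild type in each direction, the last 3 kinds above the median signal. Members and lists were chosen with earlier results of these data known, and 30 lists matched by symbol were corrected by 79 edits after the values had been opened. Promoter motifs, also planned, were not analysed here.

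Alternatives were median centring, quantile normalization (limma 3.58.1, R 4.3.3), the spike shift, loess with a span of 0.3, a floor at 7.40, bright probe sets alone, a 2-fold cut-off, other probe set choices, and means over the probe sets of a gene. Software was numpy 2.4.6, scipy 1.17.1 and pandas 2.3.3 under Python 3.11.15, and the counting was tested on simulated data.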

Additional observations from a re-analysis of the deposited data

Results flagged for a closer look

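Of the 803 named genes, 2 were higher in AtJUB1-OX and lower in wild type by 1.5-fold, and 10 the other way round. The 7 of these that belong to the gene groups are given here. With 1 array on each side, the difference of the changes was not tested. The values below are the AtJUB1-OX change less the wild type change. Among the 7, MT2, a metallothionein gene, had a positive value (2.53). Negative values belonged to TAS14 (-4.24), ACS1A (-3.81), TBG5 (-2.74), LAPA1 (-2.67), TSI-1, for a protein like those of the pathogenesis-related family PR-10 (-2.46), and NSY (-1.34). TBG5 and NSY lay above the median signal, and the other 5 below it. With values floored at the 25th percentile, the AtJUB1-OX changes of MT2 and TAS14 were under 1.5-fold, at 0.13 and -0.16.

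Of the 63 reporter probe sets, which target sequences common in transgenes and are not counted above, 2 were far above their wild type signals on the AtJUB1-OX arrays. The brighter was at 12.23 at B+7 and 12.04 at MG in AtJUB1-OX and at 5.06 and 4.53 in wild type, and the dimmer at 8.90 and 8.41 and, in wild type, at 4.64 and 4.31. Their changes between stages in AtJUB1-OX, 0.19 and 0.50, were below 1.5-fold.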

How the results depend on the processing

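No result changed its sign among those past the cut-off. The count of higher probe sets was 1927 with the values as deposited, 1284 with the arrays shifted by the spikes, 650 among the 5019 probe sets above the median signal and 791 at 2-fold. The count of lower ones was 1699, 621 among the bright probe sets and 1057 at 2-fold. The SD of the change was 0.80 among the bright probe sets and 0.83 with the floor, against 1.10. The slope on the wild type change was 0.90 by least squares and 1.15 by the reduced major axis. The other alternatives kept these counts within 1.5 times and these values within 0.1. Of 342 named genes 175 were past 1.5-fold, and 130 of these stayed so under every scaling, trend, floor and probe set alternative. The floor changed the call of 36 genes and the spike shift that of 33, against 8 with loess, 5 with quantile normalization, 1 with centring and 1 with the mean of probe sets. The cause was not tested, apart from the floor, which sets low values equal. PR1b1 was lower by 3.34 with the mean of its probe sets. With the floor, the medians of the flavonoid and glycoalkaloid groups were 0 and -3.72, against 1.40 and -5.49. In alternatives chosen after seeing the data, the medians among members above the median signal were -1.33 for pectin, -0.78 for homeodomain (1 gene, h52) and 1.80 for gibberellin genes (2 genes), against -0.09, 0.43 and 0.28, and the jasmonate genes as matched by symbol alone had -1.82, against -0.41. No paired analysis was possible because each condition had 1 array, and no array could be left out for the same reason.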

Other observations

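Some genes outside the groups had large changes in AtJUB1-OX. All of them but hdc, which is among the 15 largest increases, were picked after their values were seen. hdc, which encodes a histidine decarboxylase, had 13.41 at B+7 and 6.40 at MG in AtJUB1-OX, with 13.26 and 4.19 in wild type. The lipid transfer protein gene ltpg1 was lower by 6.36 in AtJUB1-OX and by 6.51 in wild type. rnalx and RNALE, for ribonucleases known from phosphate-starved cells, were higher by 3.24 and 2.67, against 1.62 and 1.24. DES, for divinyl ether synthase, was higher by 4.23, and the galactinol synthase gene GolS-1 was lower by 3.06, against 0.22 in wild type. ltpg1, rnalx, RNALE, DES and GolS-1 were below the median signal.

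Of the 9129 probe sets without a gene name here, 1768 were higher and 1486 lower in AtJUB1-OX, and 35 and 75 were so by at least 16-fold. Of the 909 with a gene name, 159 were higher and 213 lower, and 15 and 17 were so by at least 16-fold. Among the unnamed ones above the median signal, the largest increase was at 13.11 at B+7 and 7.68 at MG (12.55 and 7.13 in wild type), and the next at 13.34 and 8.11 (13.11 and 11.37 in wild type). The largest decreases there were at 7.75 and 11.88 (9.09 and 11.93 in wild type) and at 8.05 and 12.02 (8.18 and 12.10 in wild type).

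The spread of the change was tied to the signal. Over 4 equal classes of the mean signal in AtJUB1-OX, from dim to bright, the SD of the change was 1.23, 1.42, 1.00 and 0.53, and 204 probe sets were higher and 212 lower among the 2510 of the brightest class.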
